A study of Mus musculus with 4 samples.

Results

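The Msx and Dlx genes encode related homeobox transcription factors, and their transcripts were compared between anterior and central cells of the mouse hindlimb bud. The members were taken by symbol: Msx1, Msx2, Msx3 and Dlx1 to Dlx6, which are 9 of the 25239 genes in the count table. Cells came from FVB embryos at embryonic day 11.5, labelled wild-type and carrying the reporter H11 hsp68-hZRS(404G>A)-mCherry. In that transgene the red fluorescent protein mCherry is under the hsp68 promoter and the human form of the ZRS, a limb enhancer, with the change 404G>A, placed at the H11 locus. The anterior population was dissected and sorted as mCherry-positive, and the central population as mCherry-negative, with 2 libraries of each. Both populations carry the transgene, so they differ in position and in reporter activity together, and there is no population without the transgene. The labels do not say whether libraries came from separate embryos or from pools, so p-values measure only the spread between these libraries.

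Homeobox factors bind DNA through the homeodomain, a helical protein fold encoded by the homeobox. In the limb bud, Msx1 and Msx2 are known as targets of bone morphogenetic protein (BMP) signalling in the mesenchyme and the apical ectoderm. Dlx genes lie in the genome as convergently transcribed pairs, are known for expression in the apical ectodermal ridge, and Dlx5 and Dlx6 together are needed for normal digits, their loss giving split hand and foot malformation.

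Library totals ranged from 30080925 to 33257383 counts. Of 14610 genes that passed the filter on low counts, edgeR called 3351 (22.9%) at an adjusted p under 0.05, with 1559 (10.7%) higher in anterior cells and 1792 (12.3%) higher in central cells. The total fell to 2009 without anterior replicate 2, and the number called higher was 1032 without anterior replicate 1 and 809 without anterior replicate 2. Limb mesenchyme transcripts were found in each library, although 6 of 10 mesenchyme markers were called, 2 higher and 4 lower. Prrx1, 1 of the 4 not called, a limb mesenchyme transcription factor gene, was at 716.6 and 675.9 CPM (counts scaled to 1 M per library) in anterior and 681.2 and 641.3 in central cells. Markers of other cell types also moved with the contrast. The summed level of 10 blood markers was 3298 and 8390 CPM in anterior and 9.87 and 12.2 CPM in central cells, with 7 of the 9 tested called higher, and all 7 myogenic markers were called lower, 5 of them with at most 10 counts in either anterior library, so that they passed the filter through the central libraries. Their part in the results that follow was not tested.

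The homeobox is printed for Dlx5 and Dlx6, neighbouring genes of 1 pair, of which Dlx5 was called and Dlx6 was not. Each sequence is 180 bases, read 5′ to 3′ from GENCODE M21 transcripts (GRCm38, the same coordinates as mm10). In Dlx6, capitals mark the 48 bases that differ from Dlx5.
Dlx5: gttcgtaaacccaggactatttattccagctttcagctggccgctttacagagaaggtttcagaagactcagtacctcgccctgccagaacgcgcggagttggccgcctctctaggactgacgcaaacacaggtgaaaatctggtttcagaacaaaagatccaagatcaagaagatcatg
Dlx6: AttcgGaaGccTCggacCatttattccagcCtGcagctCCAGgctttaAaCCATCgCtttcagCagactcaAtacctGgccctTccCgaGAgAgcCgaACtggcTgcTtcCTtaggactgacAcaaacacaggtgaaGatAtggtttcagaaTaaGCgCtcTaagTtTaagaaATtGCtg
Both homeoboxes are split over exons 2 and 3, at chr6:6879526-6879657 and chr6:6878441-6878488 on the minus strand for Dlx5 and at chr6:6865140-6865271 and chr6:6867041-6867088 on the plus strand for Dlx6. Identity was 66.1% to 81.7% over the 15 pairs of Dlx homeoboxes. Across whole transcripts, the longest run shared by any of the 36 pairs of members was 44 bases, a dinucleotide repeat. In 11 pairs the longest run was such a repeat, and their other runs were not measured. Among the remaining pairs the longest was 26 bases.

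Msx1, Msx2 and Dlx5 were 5 to 10 times more abundant in anterior than in central cells, and Dlx1 was seen in central cells alone. Of the 9 members, 7 passed the filter on low counts, and 4 of those 7 were called, 3 higher and 1 lower, beside 22.9% of all tested genes called, 10.7% higher and 12.3% lower. The 2 populations did not overlap for 6 of the 7, beside 63.5% of all tested genes. Dlx1 passed the filter through the central libraries alone, so it had to differ. The median log2 fold change of the 7 was 0.95, beside -0.01 over all tested genes.

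**Figure D1:**
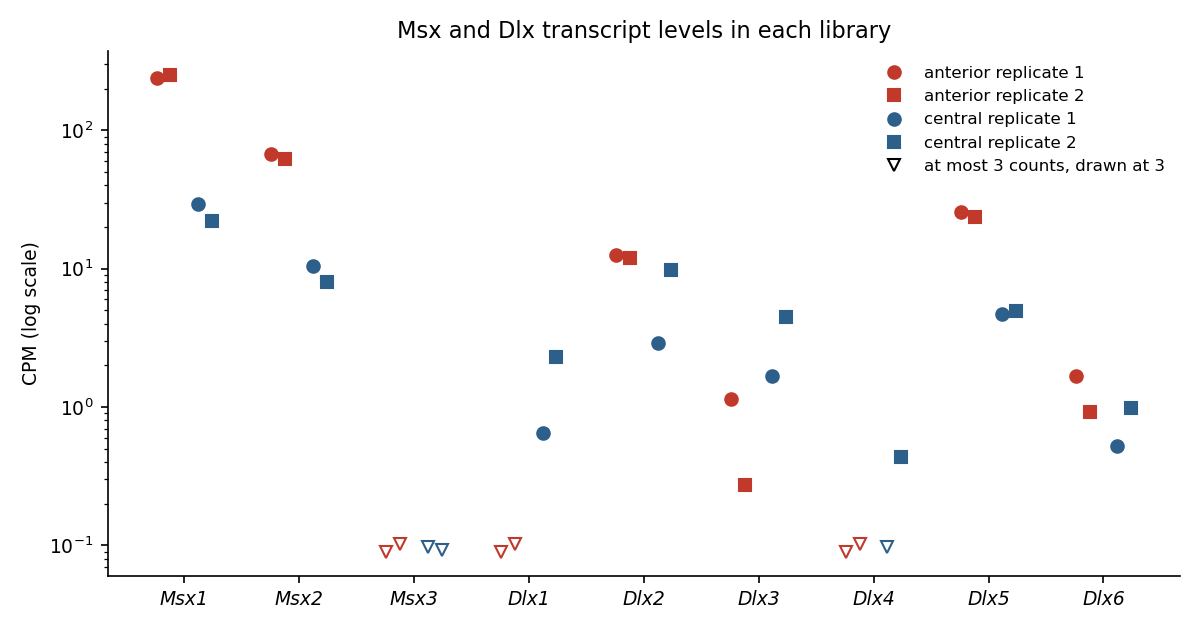
CPM of each member in each library on a log scale, 1 point per library, with 3 or fewer counts drawn at the floor of 3 counts. Msx1 sits at 238.3 and 253.1 CPM in anterior libraries, against 29.2 and 22.3 CPM in central libraries, while Dlx2 and Dlx3 are spread widely between the 2 central libraries.

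Msx1, a homeobox repressor known for roles in limb and craniofacial mesenchyme, lies at chr5:37820485-37824583 on the minus strand. It had 7949 and 7426 counts in anterior and 898 and 722 in central cells, or 238.3, 253.1, 29.2 and 22.3 CPM. Both anterior libraries stood well above both central ones. The means were 245.7 ± 10.5 CPM in anterior and 25.7 ± 4.85 in central cells (SD, n = 2). The log2 fold change was 3.26 (SE 0.12, 95% interval 2.99 to 3.53), a 9.56-fold difference, with an edgeR adjusted p of 1.06e-06. By mean CPM, Msx1 was gene 771 of all 25239 genes in anterior cells and gene 7270 in central cells. Among genes called higher, 70, Msx1 included, had a fold change at least as large as that of Msx1.

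Msx2, a close paralogue known from skull, tooth and limb development, lies at chr13:53466884-53473074 on the minus strand. Its counts were 2251 and 1822 in anterior and 324 and 261 in central cells, or 67.5, 62.1, 10.5 and 8.06 CPM. Again the populations were apart in every library, at 64.8 ± 3.81 against 9.29 ± 1.74 CPM (SD, n = 2). The log2 fold change was 2.80 (SE 0.13, 95% interval 2.50 to 3.11) with an edgeR adjusted p of 3.72e-06. Msx3, known mainly from the dorsal neural tube, had 2 counts in anterior replicate 1 and 0 in the other libraries and was not tested. It lies at chr7:140046157-140049089.

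Per kilobase of exon, Msx1 exceeded Msx2 in each library. Levels per kilobase were 79.3 ± 3.38 CPM for Msx1 and 19.8 ± 1.16 for Msx2 in anterior cells, and 8.31 ± 1.57 and 2.83 ± 0.53 in central cells (SD, n = 2). Msx1 made up 78.9% and 81.2% of the Msx transcripts in anterior and 74.6% and 74.6% in central cells on that scale. Both anterior shares were above both central ones, but with 2 libraries against 2 an exact two-sided permutation test cannot give a p below 0.333. Scaled by the longest transcript, the mean shares were 82.8% and 77.8%.

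The antisense transcript Msx1os lies inside Msx1, so its counts depend on whether counting used strand, which is not given in the sources used here. It had 2096, 1551, 319 and 163 counts, or 62.8 and 52.9 CPM in anterior and 10.4 and 5.04 in central cells. Its log2 fold change was 2.92 (SE 0.26, edgeR adjusted p = 0.000105). Relative to Msx1 its counts were 26.4%, 20.9%, 35.5% and 22.6%, ranges that overlap between the populations. The 2 genes rose together, and without strand their reads cannot be told apart.

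The 250 bases before the Msx1 start (RefSeq, GRCm38.p6, chr5:37824586-37824835, minus strand) are shown because Msx1 was the member with the largest rise. Capitals mark CCAAT on either strand.
Msx1 promoter: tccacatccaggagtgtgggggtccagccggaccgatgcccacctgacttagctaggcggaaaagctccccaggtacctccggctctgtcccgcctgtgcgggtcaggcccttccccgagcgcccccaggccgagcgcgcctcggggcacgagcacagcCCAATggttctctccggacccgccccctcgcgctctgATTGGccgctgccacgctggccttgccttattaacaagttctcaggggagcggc
CCAAT began 91 and 54 bases before the start, and 33.8% of 32851 promoter windows of this length hold that motif. GC content was 68.0%, beside a median of 52.4% over those windows. The homeodomain-type motifs TAATTA and TAATTG, searched on both strands, were not found in it, and 4.84% and 7.17% of windows hold them. In the Msx2 window (chr13:53472781-53473030, minus strand), TAATTA began 187 bases before the RefSeq start and CCAAT 124 bases before it. That window lies inside the GENCODE extent of Msx2 (chr13:53466884-53473074). The annotations thus place the Msx2 start differently, and by GENCODE these motifs are within the gene. Nothing was measured here about binding at either promoter.

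**Figure D2:**
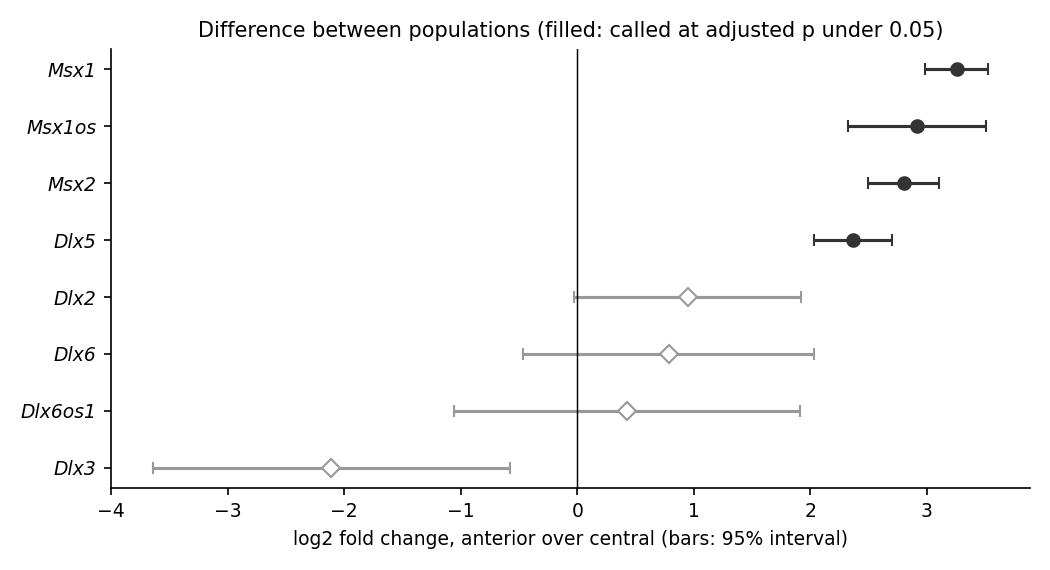
Log2 fold change, anterior over central, of members and antisense transcripts with a fitted value, except Dlx1, which had no count in either anterior library. Bars are 95% intervals, and points are filled where the adjusted p is under 0.05. Msx1, Msx1os, Msx2 and Dlx5 lie above 2, and the intervals of Dlx2, Dlx6 and Dlx6os1 include 0.

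Dlx5 and Dlx6 form 1 convergent pair on chromosome 6, and they differed in level and in result. Dlx5, known for bone and limb development, lies at chr6:6877805-6882085 on the minus strand and had 864 and 692 counts in anterior and 144 and 159 in central cells. The CPM values were 25.9, 23.6, 4.68 and 4.91, with both anterior libraries far above both central ones. The log2 fold change was 2.37 (SE 0.15, 95% interval 2.03 to 2.7), a 5.16-fold difference, with an edgeR adjusted p of 1.35e-05. Among the 7 members with counts in both central libraries, Dlx5 had the central replicate ratio closest to 1, at 1.05.

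Dlx6 lies at chr6:6863334-6868568 on the plus strand and had 56, 27, 16 and 32 counts. Its levels of 1.68 and 0.92 CPM in anterior and 0.52 and 0.99 CPM in central cells overlap. The log2 fold change was 0.78 (SE 0.55, 95% interval -0.47 to 2.03) with an edgeR adjusted p of 0.354. In this fit a rise of the size of Dlx5's lies outside the interval, and a smaller change in either direction lies within it. With so few counts that limit is not firm, and leaving out a library moved the Dlx6 log2 fold change between 0.29 and 1.32. Dlx6os1, an antisense RNA of the Dlx6 locus, had 47, 12, 20 and 23 counts, and its log2 fold change of 0.43 (SE 0.65) was not called (edgeR adjusted p = 0.692). Dlx6os2 was at 0 in each library. In the RefSeq annotation Dlx6 lies within Dlx6os1, so without strand their reads cannot be told apart, and the levels of both and the difference between Dlx5 and Dlx6 are uncertain to that extent. With sense and antisense counts summed, an alternative chosen after seeing the data, the Dlx6 log2 fold change was 0.63 (SE 0.48, adjusted p = 0.402).

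Genes around this locus did not all follow Dlx5. Dync1i1, a dynein chain gene whose exons hold limb enhancers known to act on Dlx5 and Dlx6, was at 7.47 and 7.47 CPM in anterior and 2.08 and 1.73 CPM in central cells. Its log2 fold change was 1.97 (SE 0.25, edgeR adjusted p = 0.000871). Sem1 and Sdhaf3, the nearest tested genes on either side of the pair, had log2 fold changes of -0.17 and 0.39 with adjusted p of 0.359 and 0.292. Sem1 was called lower without central replicate 2, at -0.30 (adjusted p = 0.0391).

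Dlx1 and Dlx2 are the pair on chromosome 2, known best from forebrain and branchial arches. Dlx1, at chr2:71528113-71533981 on the plus strand, had no count in either anterior library, 20 counts in central replicate 1 and 75 in central replicate 2. Against a floor of 3 counts per library, it was at least 15.5-fold lower in anterior cells (edgeR adjusted p = 0.0055). That bound was 6.77-fold from central replicate 1 alone, 24.1-fold from central replicate 2 alone, and 7.81-fold with counts and library sizes halved. A count of 0 allows up to 0.0899 and 0.102 CPM in the anterior libraries, beside 0.65 and 2.32 CPM measured in the central ones. Its antisense transcript Dlx1as had 10 counts in central replicate 2 and 0 in the others.

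Dlx2, at chr2:71543408-71546754 on the minus strand, had 419 and 349 counts in anterior and 90 and 315 in central cells. The levels were 12.6, 11.9, 2.92 and 9.73 CPM, so anterior was above central in each library but by a small margin over central replicate 2. The log2 fold change was 0.95 (SE 0.43, 95% interval -0.03 to 1.92) and was not called, with an edgeR adjusted p of 0.153. Without central replicate 2 it was 2.07 and called (adjusted p = 5.68e-06), and without central replicate 1 it was 0.33. It was also called with no filter on low counts (adjusted p = 0.0293). The call of Dlx2 therefore depended on the central library used and on the filter.

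Dlx3 and Dlx4 are the pair on chromosome 11, and Dlx3 is known from epidermis, tooth and placenta. Dlx3, at chr11:95120119-95125296 on the plus strand, had 38 and 8 counts in anterior and 52 and 146 in central cells, or 1.14, 0.27, 1.69 and 4.51 CPM. Both replicate pairs were wide apart, at ratios of 4.18 between the anterior and 2.67 between the central libraries. The log2 fold change was -2.11 (SE 0.67, 95% interval -3.65 to -0.57) and missed the threshold, with an edgeR adjusted p of 0.054. Without anterior replicate 1 the adjusted p was 0.00397, without central replicate 1 it was 0.00242, without anterior replicate 2 it was 0.133, and without central replicate 2 it was 0.266. The DESeq2 Wald test (adjusted p = 0.0157), no filter (0.00452), a mean count of at least 50 (0.0488) and halved counts (0.0427) each put it past the threshold. Dlx4, at chr11:95140447-95146263 on the minus strand, had 14 counts in central replicate 2 and 0 elsewhere and was not tested, and Dlx4os had 2 and 14 counts in the central libraries.

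The Dlx mixture differed between libraries. Per kilobase of exon, Dlx5 made up 67.4% and 69.1% of Dlx transcripts in anterior cells and 50.7% and 26.2% in central cells. Dlx2 made up 25.9% and 27.6% in anterior and 25.1% and 41.1% in central cells. Dlx3 made up 2.57% and 0.69% in anterior and 15.9% and 20.9% in central cells, so its share was higher in both central libraries. Summed without length scaling, Dlx transcripts were at 41.3 and 36.7 CPM in anterior and 10.5 and 22.9 CPM in central cells.

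**Figure D3:**
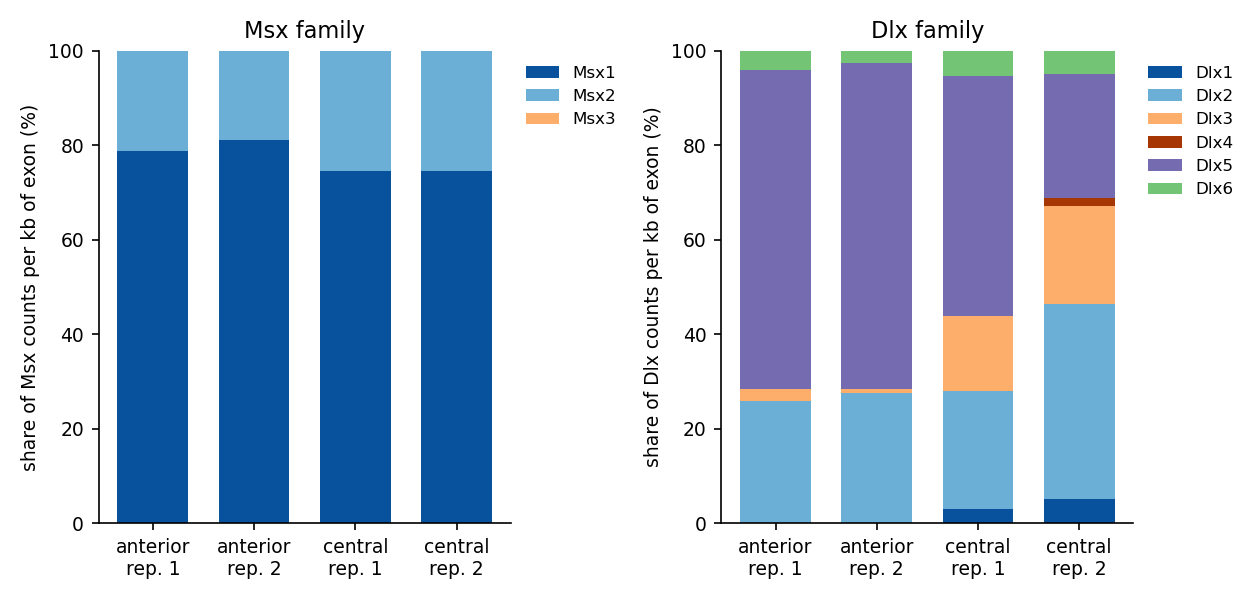
Share of each member in the Msx transcripts (left) and in the Dlx transcripts (right) per kilobase of exon, as stacked percentages with 1 bar per library. Msx1 holds 74.6% or more of every Msx bar, and the Dlx5 part of the Dlx bar runs from 26.2% in central replicate 2 to 69.1% in anterior replicate 2.

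Central replicate 2 also held more ectoderm transcript, and Dlx1, Dlx2 and Dlx3 were at higher levels in it than in central replicate 1. The summed level of 20 apical ridge and limb ectoderm markers was 16.7 and 15.7 CPM in anterior and 79.3 and 242.1 CPM in central cells, and each of the 20 was higher in central replicate 2 than in central replicate 1. Of 18 tested, 15 were called lower in anterior cells and 0 higher, with a median log2 fold change of -4.33. That tally is a description, since 9 of the 18, and 8 of the 15, had at most 10 counts in either anterior library and passed the filter through the central libraries. Fgf8, the ridge growth factor, was at 0.24, 0.07, 5.75 and 29.2 CPM, and Trp63, an epidermal transcription factor, at 0.12, 0.14, 4.35 and 23.3 CPM. The calls of Fgf8, Trp63, Krt5 and Cdh1 were lost with limma-voom, at adjusted p of 0.119, 0.109, 0.105 and 0.0725. Both anterior libraries were low in them, and of the list 2 markers were at 0 in both.

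The ratio of central replicate 2 to central replicate 1 was 3.05 for the ectoderm sum. It was 3.57 for Dlx1, 3.33 for Dlx2, 2.67 for Dlx3 and 1.90 for Dlx6, whose 16 and 32 counts were few and whose anterior libraries differed by a ratio of 1.82. It was 1.05 for Dlx5, 0.77 for Msx1 and 0.77 for Msx2, beside a median of 0.998 over all tested genes. The members that were called higher were therefore at like or lower levels in the central library with more ectoderm transcript, and the part of ectoderm cells in the Dlx1, Dlx2, Dlx3 and Dlx6 values was not tested. Ectoderm was not the only difference between central replicates 1 and 2. Summed cartilage and bone markers were at 1832 and 1382 CPM in them, endothelial markers at 34.4 and 43.5, and myogenic markers at 142.9 and 142.2. The part of these cell types was not tested either. In bulk RNA, fewer cells of a type and less RNA per cell cannot be told apart.

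**Figure D4:**
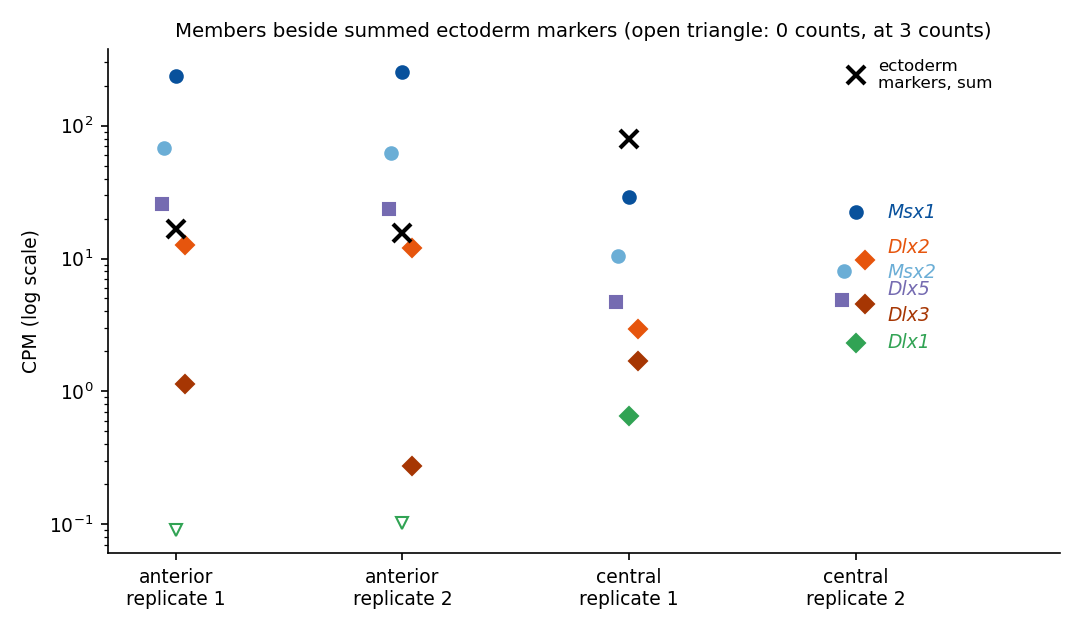
CPM on a log scale in the 4 libraries for 6 members and for the sum of 20 ectoderm markers (crosses), with open triangles for 0 counts drawn at 3 counts. From central replicate 1 to central replicate 2 the crosses, Dlx1, Dlx2 and Dlx3 are 2.67 to 3.57 times higher, while Msx1 and Msx2 are lower in replicate 2.

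BMP signalling genes were set beside the members because Msx and Dlx genes are known BMP targets. BMP ligands went both ways: of 10 tested, 4 were called higher and 3 lower. Bmp4, a ligand of limb mesenchyme, was at 154.9 and 137.2 CPM in anterior and 56.2 and 51.1 CPM in central cells, with a log2 fold change of 1.44 (SE 0.09, edgeR adjusted p = 1.18e-05). Bmp5 rose by 1.66 and Gdf6, a ligand of joint formation, by 2.49, while Bmp3 was lower, at -3.68. Of the 3 called lower, 2 had at most 10 counts in either anterior library, Bmp3 among them. They passed the filter through the central libraries.

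Secreted BMP antagonists were lower where they changed: of 13 tested, 7 were called lower and 0 higher, with a median log2 fold change of -1.46. Fst, the gene of follistatin, was at 0.21, 0.07, 14.6 and 12.7 CPM, with a log2 fold change of -6.54 (SE 0.37, edgeR adjusted p = 8.32e-06). Fst, 1 of the 7 called lower, had 7 and 2 anterior counts and passed the filter through the central libraries. Smoc2 and Sostdc1, secreted inhibitors of the pathway, had log2 fold changes of -4.95 and -4.41. With 28 and 7 anterior counts, Sostdc1 also needed the central libraries to pass the filter. Among BMP target genes, 7 of 14 tested were called higher and 0 lower, with a median of 0.63. These included Hey1, a Notch and BMP responsive repressor (1.92, adjusted p = 5.23e-06), and Id1 and Id3, inhibitors of helix-loop-helix factors (1.23 and 1.08). Bambi, a decoy receptor that is itself a target, rose by 1.54, from 31.6 and 28.4 CPM in central to 87.2 and 87.6 in anterior cells. Among targets not called, Gata2, Gata3, Tbx2 and Tbx3 had negative log2 fold changes (-0.362, -1.435, -0.194 and -0.688). Those of Id4, Smad6 and Smad9, also not called, were positive.

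Receptors and Smads mostly did not pass the test, with 2 of 13 called higher and 1 lower, a share close to the 22.9% of all tested genes. Those higher were Bambi and Smad7, an inhibitory Smad (0.89, adjusted p = 0.000218), both of which are also counted among the BMP target genes. The receptor gene Bmpr1b was lower at -1.33 (adjusted p = 0.00691). Cofactors and partners of Msx and Dlx proteins split evenly, with 5 of 17 higher and 5 lower. Pax9, known to act with Msx1 in teeth, was at 27.7, 21.9, 3.44 and 1.27 CPM (log2 fold change 3.40, SE 0.36, adjusted p = 0.000258). Pax3, a marker of migrating muscle precursors as well as an Msx partner, was at 0.36, 0.27, 16.6 and 20.8 CPM (-5.86, SE 0.27, adjusted p = 3.4e-06). With 12 and 8 anterior counts, Pax3 needed the central libraries to pass the filter.

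No relative of the members that was tested was called higher. Of 34 NK-like homeobox genes in the table, 18 were at 0 counts in both anterior libraries, and of 11 that passed the filter 6 were called lower and 0 higher. Of those 6, 5 had at most 10 counts in either anterior library and passed the filter through the central libraries. Lbx1, a gene of migrating muscle precursors, was at 0.12, 0.10, 25.5 and 25.9 CPM, and its log2 fold change was -7.80 (SE 0.25, edgeR adjusted p = 8.45e-07). Emx2, a girdle and forebrain factor, was at -4.95, Barx2 at -3.91, and En1, a ventral ectoderm factor at 0 in both anterior libraries, was at least 29.1-fold lower. By contrast, all 11 distal mesenchyme and FGF response genes that passed the filter were called higher, with a median of 1.59, among them the LIM homeobox genes Lhx2 (2.65) and Lhx9 (2.60). The lists were chosen with earlier results of these data known, so these tallies are descriptions.

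**Figure D5:**
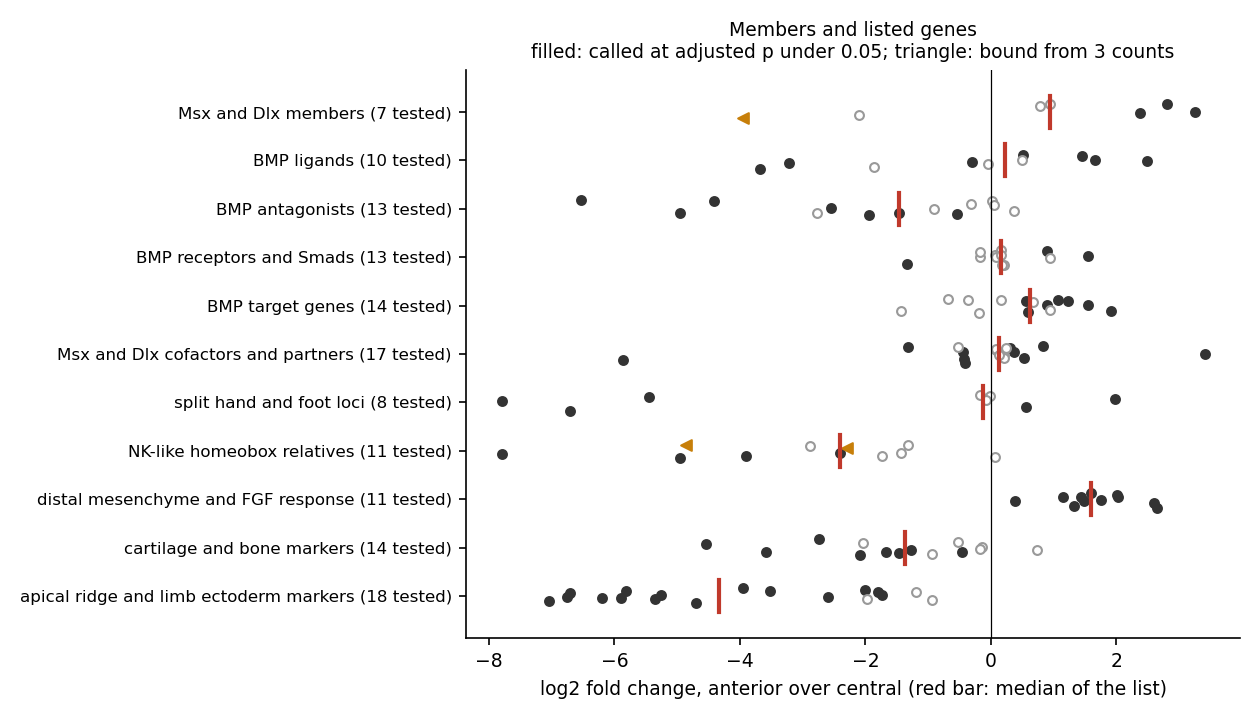
Log2 fold change, anterior over central, of the tested members and of each gene list, with 1 point per gene, filled where called, triangles for folds held at the bound of 3 counts, and a red bar at the median of the plotted values. The BMP antagonists and the ectoderm markers lie mostly below 0, and the distal mesenchyme and FGF response genes lie above 0.

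The genes whose profile over the 4 libraries was most like each called member's were found by the root-mean-square difference of mean-centred log2 CPM. The search covered 10604 genes with a mean of at least 5 CPM, and a small difference means that a gene changed by the same factor. For Msx1 they were Rbfox3, Mcub and Mrc1, with differences of 0.13, 0.13 and 0.21, and Msx2 was the sixth closest gene. For Msx2 they were Lhx2, Lhx9 and Vegfd, at 0.08, 0.10 and 0.11, with Msx1 the ninth. For Dlx5 they were Gdf6, Cbln1 and Gja3, at 0.06, 0.07 and 0.08, with Msx2 at rank 24 and Msx1 at rank 81. With 2 populations, this likeness is largely a likeness of fold change.

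Neighbouring genes mostly did not follow the members. On the 2 sides of Msx1 the nearest tested genes went opposite ways, both from few counts. Cytl1 passed the filter through the central libraries alone, and Gm20052 through the anterior libraries alone. The direction of each was thus fixed by the filter. Against the floor on counts per library, Cytl1 was at least 6.65-fold lower in anterior cells (edgeR adjusted p = 0.0228). Gm20052 was higher, with a log2 fold change of 3.65 (adjusted p = 0.0323). Cytl1 had 2, 0, 26 and 14 counts and lost its call without anterior replicate 2 (adjusted p = 0.123) or central replicate 1 (0.156). Gm20052 had 38, 16, 4 and 0 counts and lost its call without anterior replicate 1 (0.186) or central replicate 2 (0.106). Sptlc1 and Sfxn1 beside Msx2, and Metap1d and Itga6 beside the Dlx1 and Dlx2 pair, were not called, although Sfxn1 and Itga6 were called without central replicate 1 (adjusted p of 0.048 and 0.000265). Itga6 was also called with the DESeq2 Wald test (adjusted p = 0.0453) and with no filter (0.0141). Beside the Dlx3 and Dlx4 pair, the integrin gene Itga3 was lower at -3.93 (adjusted p = 0.00249, and 0.057 with limma-voom), from 1.56, 0.89, 7.60 and 29.97 CPM, with its highest value in central replicate 2. Kat7, on the other side of that pair, was not called, at 0.18, except without central replicate 2 (adjusted p = 0.0425). Zfp511 and Fuom beside Msx3 were not called, at -0.05 and -0.49.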

How the data were processed

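The authors deposited whole-number read counts for 25239 gene symbols in 4 libraries, not normalized. Per the submitters' processing notes, STAR 2.7.9a, HTSeq, DESeq2 3.16 and genome build mm10 were used. The strand setting is not given in the sources used here. Even numbers made up 72.8% to 75.6% of counts from 1 to 10, the pattern of both mates of a pair being counted, and halved counts were tried.

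Groups came from sample titles. Counts were fitted in edgeR 4.0.16 (R 4.3.3): filterByExpr default, TMM scaling, quasi-likelihood F test without a replicate block, Benjamini-Hochberg adjustment over 14610 genes, threshold 0.05. CPM are TMM-scaled. The standard error is the absolute log2 fold change over the square root of F. Folds against at most 3 counts per library are bounds, and like all intervals of counts they cover counting error only. The pipeline was tested on simulated counts with 200 changed genes.

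Members and lists were chosen with earlier results of these data known. Named genes were the members, antisense transcripts, nearest tested neighbours, the 4 largest called changes per list (mean CPM of at least 1) and the 3 most similar genes per called member. Prrx1 was added after its values were seen. The 18 lists held 219 genes of the table, and 105 of 177 tested were called. Lists without other mention: cartilage and bone (0 higher, 8 lower of 14), split hand and foot loci (2, 3 of 8), neural crest (1, 2 of 4), neural (0, 2 of 8), endothelial (0, 5 of 8) and dissociation stress (1, 2 of 11). Among those called lower, 3 split hand and foot loci and 1 each of neural crest, neural and endothelial passed through the central libraries. These had at most 10 counts in either anterior library. Alternatives were other scalings and filters, DESeq2 1.42.0, limma-voom 3.58.1, the replicate block, halved counts, a 1.5-fold test, a threshold of 0.01, leaving out each library, other gene lengths for shares and, added after seeing the data, summed sense and antisense counts. The Msx homeobox sequences are not reported here.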

Additional observations from a re-analysis of the deposited data

How the results depend on the processing

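Msx1, Msx2 and Dlx5 kept their direction and call under every alternative that gave a value, with log2 fold changes of 3.08 to 3.46, 2.62 to 3.01 and 2.30 to 2.44. The adjusted p of Dlx1 was 3.28e-05 to 0.0199, which says nothing of stability, since Dlx1 was tested only through the central libraries. Dlx3 passed the threshold with the DESeq2 Wald test (-2.12), with no filter (-2.10), with a mean count of at least 50 (-2.12), with halved counts (-2.09) and with the replicate block (-2.08). Leaving out a library moved it from -3.49 to -1.24. Dlx2 passed with no filter (0.95) and with the replicate block (1.13), and ranged from 0.33 to 2.07 when a library was left out. Members called lower were 2 instead of 1 under DESeq2, no filter, the replicate block and halved counts, and 1 to 2 when a library was left out. A test against a 1.5-fold change called 1035 genes (278 higher, 757 lower) and a threshold of 0.01 called 1690 (721 and 969). Leaving out a library gave 2009 to 3697 called genes, 809 to 1884 higher and 1200 to 1813 lower. Reversed signs were seen for genes that were not called: when a library was left out, Dlx6os1 ranged from -0.724 to 1.05, Metap1d from -0.0874 to 0.294 and Zfp511 from -0.115 to 0.0178. Replicate numbers 1 and 2 occur in both populations, but the deviations of same-numbered libraries correlated at 0.04 across genes, so they were not taken as pairs, and the replicate block called 3586 genes, Itga6 (adjusted p = 0.0304) among them. Leaving out a library leaves 1 in an arm, which is then assumed to vary like the others. Dlx1 and Dlx6 had no value at a mean count of at least 50, and the 1.5-fold and 0.01 settings were not recomputed for single genes. Low counts limit Dlx1, Dlx3, Dlx4, Dlx6 and Msx3.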
